A study of Mus musculus with 13 samples.

Results

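The AP-1 and Egr immediate early factors are 10 genes of mouse muscle cells that were followed as one group. They were the 4 Fos family genes Fos, Fosb, Fosl1 and Fosl2, the 3 Jun family genes Jun, Junb and Jund, the related factor Atf3, and the zinc finger genes Egr1 and Egr3. They were chosen by name, and all 10 were found among the 24411 genes of the bulk table. Single-cell library 1 lists 9 of them among 14601 genes, since Egr3 is not listed there, and library 2 lists all 10 among 14164 genes.

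All samples came from C57BL/6 wild-type mice aged 2 months. Fresh SMMC (3 libraries) were cells sorted as negative for CD31, CD45, Sca1 and Vcam1 and positive for ITGA7. Proliferating SMMC (3 libraries) were the same sorted cells after 3 days in culture, and differentiating SMMC (3 libraries) were such cells under differentiation, for a time that the labels do not give. MuSC (2 libraries), labelled as quiescent muscle stem cells, were sorted as negative for CD31, CD45 and Sca1 and positive for Vcam1 and ITGA7. A further 2 droplet libraries held single mononuclear cells of uninjured hindlimb muscle that had been taken apart by mechanical and enzymatic treatment. No sample of undissociated muscle was analysed here, so the level of these genes in intact tissue was not measured.

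Immediate early genes are transcribed within minutes of a stimulus from factors already present in the cell, and their mRNAs are short-lived. Fos and Jun proteins pair through leucine zippers to form AP-1, which binds DNA, and Fos proteins need a Jun partner to do so. Atf3 is a stress-induced factor that can pair with Jun proteins, and Egr1 and Egr3 bind GC-rich sites through zinc fingers. In muscle stem cells and other muscle-resident cells, Fos, Jun, Atf3 and Egr1 are well known to be induced while tissue is dissociated and cells are sorted. The comparisons therefore describe sorted or dissociated cells, and dissociation and cell identity cannot be told apart in them.

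The promoters of 5 members that were abundant in fresh SMMC are shown because each of these genes was higher there than in proliferating SMMC. By symbol, 7 of the 10 members matched a RefSeq window of 250 bases before to 50 bases after the annotated start (build GRCm38.p6), all but Egr1, Egr3 and Fosl1. Each window is written 5′ to 3′ on the gene's own strand, with position 0 at the annotated start, and capitals mark the motif matches. The Fos window is chr12:85473640-85473939 on the plus strand. The Fosb window is chr7:19309996-19310295, the Jun window chr4:95052173-95052472, the Junb window chr8:84978699-84978998 and the Atf3 window chr1:191183284-191183583, each on the minus strand.
Fos: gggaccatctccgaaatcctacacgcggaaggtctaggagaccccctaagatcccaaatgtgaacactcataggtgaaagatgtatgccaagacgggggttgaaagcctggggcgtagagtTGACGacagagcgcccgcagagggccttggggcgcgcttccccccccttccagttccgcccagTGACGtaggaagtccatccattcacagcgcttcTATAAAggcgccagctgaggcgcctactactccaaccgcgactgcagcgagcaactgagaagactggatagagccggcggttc
Fosb: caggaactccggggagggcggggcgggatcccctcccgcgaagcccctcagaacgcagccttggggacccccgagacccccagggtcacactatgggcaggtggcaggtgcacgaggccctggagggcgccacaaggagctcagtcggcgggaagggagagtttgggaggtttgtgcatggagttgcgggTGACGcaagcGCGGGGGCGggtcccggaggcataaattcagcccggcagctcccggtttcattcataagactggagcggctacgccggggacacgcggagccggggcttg
Jun: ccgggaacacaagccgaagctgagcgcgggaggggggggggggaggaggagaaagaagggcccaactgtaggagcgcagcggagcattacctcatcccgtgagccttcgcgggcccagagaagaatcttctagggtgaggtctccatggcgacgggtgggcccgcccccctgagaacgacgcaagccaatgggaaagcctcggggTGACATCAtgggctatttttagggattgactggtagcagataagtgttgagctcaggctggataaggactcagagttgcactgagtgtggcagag
Junb: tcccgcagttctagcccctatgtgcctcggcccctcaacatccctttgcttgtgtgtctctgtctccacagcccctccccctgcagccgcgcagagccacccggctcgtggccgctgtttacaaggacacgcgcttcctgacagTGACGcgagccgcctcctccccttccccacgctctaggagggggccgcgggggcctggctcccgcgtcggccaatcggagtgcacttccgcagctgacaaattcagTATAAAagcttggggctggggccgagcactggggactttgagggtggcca
Atf3: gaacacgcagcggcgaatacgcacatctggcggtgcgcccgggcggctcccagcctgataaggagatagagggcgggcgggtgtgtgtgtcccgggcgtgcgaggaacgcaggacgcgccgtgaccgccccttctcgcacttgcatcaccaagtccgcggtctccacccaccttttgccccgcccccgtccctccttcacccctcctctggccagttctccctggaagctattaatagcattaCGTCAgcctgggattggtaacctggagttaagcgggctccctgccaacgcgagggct

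Motifs were searched on both strands. The half-site TGACG, which is the first part of the cAMP response element TGACGTCA, was found in 4 of the 7 windows, those of Fos, Fosb, Junb and Atf3, and in 20.8% of all 32851 windows of this length. It lay from -129 to -125 and from -66 to -62 in Fos, from -60 to -56 in Fosb, from -106 to -102 in Junb, and on the opposite strand from -7 to -3 in Atf3. Jun held the variant TGACATCA from -45 to -38, which 3.62% of all windows hold. The TATA box letters TATAAA stood from -33 to -28 in Fos and at the annotated start itself in Junb, and in 13.6% of all windows. The Egr letters GCGNGGGCG stood from -50 to -42 in Fosb and from -79 to -71 in Fosl2, whose window is not printed, and in 5.55% of all windows. The full element TGACGTCA (1.79% of all windows), the AP-1 letters TGANTCA (7.81%) and the CArG box (1.63%) had no match in the 7 windows. Sequence more than 250 bases before the start, and the promoters of Egr1, Egr3 and Fosl1, were not searched. The absence of a match therefore holds for these windows only. A match of letters is a description of the sequence and not evidence of binding.

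Bulk levels were FPKM, which is scaled to transcript length and to the library, and the number of reads behind them is unknown. Nothing in the labels ties the libraries of a group to different animals. The p-values then refer to the spread among libraries alone, which may be technical. The labels give no batch. In bulk samples, fewer cells of a type and less RNA per cell cannot be told apart. The sort labels were checked against marker lists. All 8 muscle stem cell markers had at least 1 FPKM in MuSC and in fresh SMMC, with a summed level of 28460 to 41180 FPKM in the MuSC libraries and 760.7 to 1061 FPKM in the fresh SMMC libraries. Sdc4 alone had a mean of 31270 FPKM in MuSC and 483.2 FPKM in fresh SMMC, so these sums rest largely on 1 gene. They do not stand for every marker of the list: Chodl had 331 FPKM in fresh SMMC and 133 FPKM in MuSC. Fresh SMMC also carried all 9 pericyte, all 9 tenocyte, all 9 fibro-adipogenic progenitor, all 8 glial and all 8 endothelial markers at 1 FPKM or more.

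**Figure D1:**
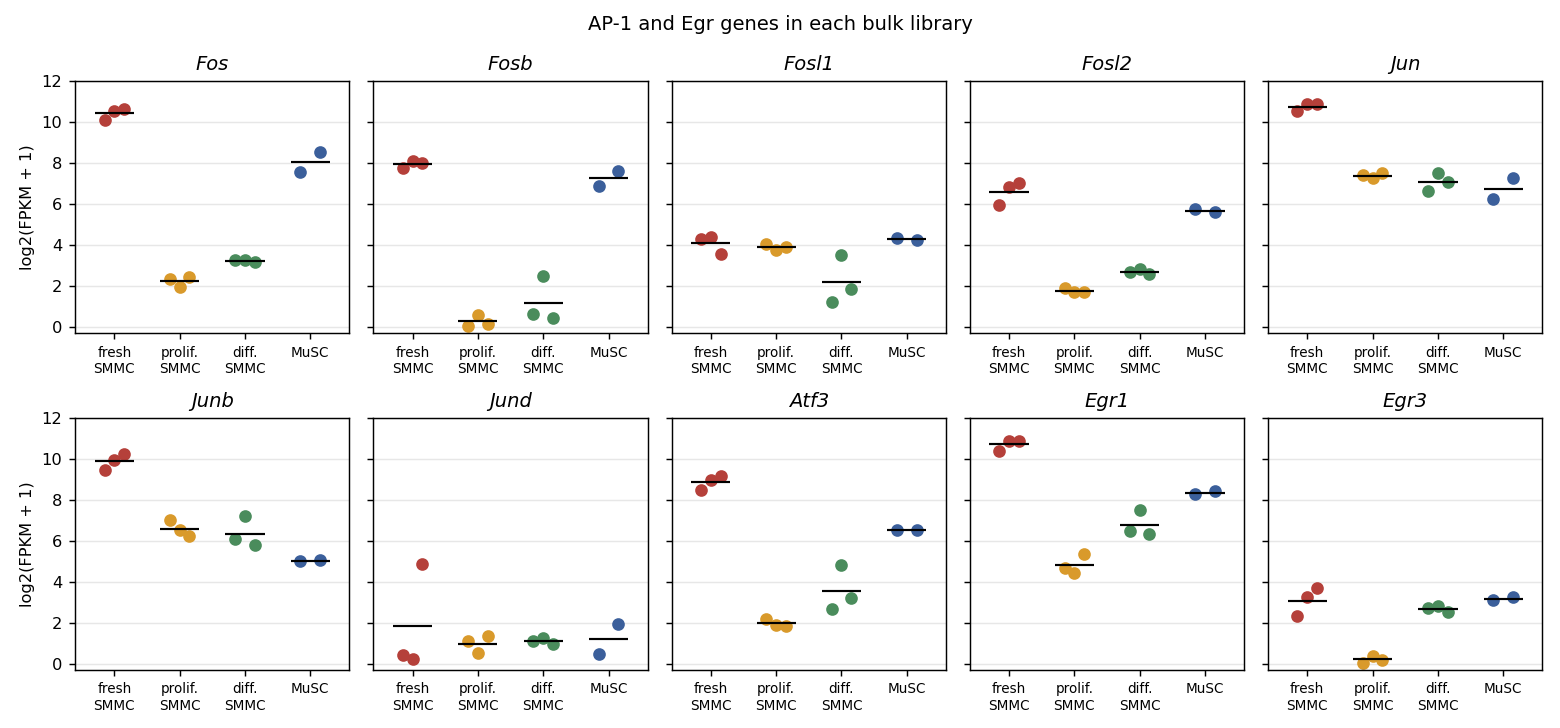
Each point is 1 bulk library, on the y axis as log2(FPKM + 1), and the line is the group mean; fresh SMMC, proliferating SMMC and differentiating SMMC have 3 libraries each and MuSC 2. Fos, Fosb, Fosl2, Jun, Junb, Atf3 and Egr1 are higher in every fresh SMMC library than in any other library, while Fosl1 and Jund are not.

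Fos, the founding member of its family, was among the most abundant members in fresh SMMC. It had 1082, 1499 and 1567 FPKM in the fresh SMMC libraries, against 189 and 368 FPKM in MuSC. In culture it had 4.03, 2.90 and 4.4 FPKM in the proliferating and 8.62, 8.69 and 8.04 FPKM in the differentiating libraries. The groups did not overlap in any pair, so that the order was fresh SMMC, MuSC, differentiating SMMC and proliferating SMMC. By limma across all genes tested, the log2 difference was 2.37 ± 0.28 (SE) for fresh SMMC minus MuSC (adjusted p = 1.35e-05). It was -8.17 ± 0.25 for proliferating minus fresh SMMC (adjusted p = 4.46e-10) and 1.00 ± 0.25 for differentiating minus proliferating SMMC (adjusted p = 0.0064).

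Fosb, a close relative of Fos that is induced with it, had 215, 276 and 257 FPKM in fresh SMMC against 116 and 195 FPKM in MuSC. Every fresh SMMC library lay above both MuSC libraries, but the log2 difference of 0.71 ± 0.49 did not pass the test (limma adjusted p = 0.232). Fosb nearly vanished in culture, at 0.04, 0.50 and 0.12 FPKM in proliferating SMMC (log2 difference to fresh SMMC -7.69 ± 0.44, limma adjusted p = 2.86e-08). Differentiating SMMC had 0.53, 4.62 and 0.36 FPKM, and replicate 2 stood far above the proliferating libraries while replicate 1 lay just above the highest of them (log2 difference 0.92 ± 0.44, limma adjusted p = 0.118). That difference passed without differentiating SMMC replicate 3 (1.28, adjusted p = 0.0394) and with a pseudocount of 0.1 (2.07, adjusted p = 0.0463). The difference between fresh SMMC and MuSC passed when those 2 groups alone were fitted (adjusted p = 0.0426).

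Fosl2, which encodes the Fos-related antigen Fra-2, followed Fos at lower levels. Its values were 61.2, 113 and 127 FPKM in fresh SMMC against 53.0 and 47.6 FPKM in MuSC. Fresh SMMC replicate 1 lay only just above the MuSC libraries, and the log2 difference was 0.92 ± 0.28 (limma adjusted p = 0.012). That call ends with TMM rescaling, at a log2 difference of 0.31 (adjusted p = 0.276), and without MuSC replicate 2, at 0.84 (adjusted p = 0.0769). Proliferating SMMC had 2.67, 2.28 and 2.29 FPKM, below every fresh SMMC library (log2 difference -4.83 ± 0.25, limma adjusted p = 1.26e-08). Differentiating SMMC had 5.36, 5.98 and 4.98 FPKM, above every proliferating library (log2 difference 0.92 ± 0.25, limma adjusted p = 0.0104).

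Fosl1, which encodes Fra-1, did not share this pattern. It had 18.4, 20.2 and 10.9 FPKM in fresh SMMC, 15.6, 12.3 and 13.7 FPKM in proliferating SMMC, and 19.3 and 17.9 FPKM in MuSC. The fresh SMMC libraries overlapped both other groups, while all 3 proliferating libraries lay below both MuSC libraries. No pair of these groups passed the test, with limma adjusted p = 0.754 for fresh SMMC minus MuSC, 0.712 for proliferating minus fresh SMMC and 0.505 for proliferating SMMC minus MuSC. Fosl1 fell in differentiating SMMC, to 1.3, 10.4 and 2.61 FPKM, all below the proliferating libraries (log2 difference -1.70 ± 0.45, limma adjusted p = 0.00999). It is the single member that was lower in differentiating than in proliferating SMMC by this test.

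Among the DNA-binding Jun partners, Jun had 1480, 1852 and 1887 FPKM in fresh SMMC against 73.4 and 153 FPKM in MuSC. The log2 difference was 4.02 ± 0.31 (limma adjusted p = 4.38e-07), and the groups lay far apart. In proliferating SMMC Jun had 168, 151 and 181 FPKM (log2 difference to fresh SMMC -3.37 ± 0.27, limma adjusted p = 4.52e-07). Unlike Fos, Jun stayed at more than 90 FPKM in all cultured libraries: differentiating SMMC had 98.9, 179 and 134 FPKM, which overlapped both the proliferating libraries (log2 difference -0.31 ± 0.27, limma adjusted p = 0.403) and MuSC.

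Junb, a Jun protein that also restrains growth in some cells, had the highest estimated log2 difference of the members between the sorted populations. It had 705, 992 and 1218 FPKM in fresh SMMC against 30.8 and 31.8 FPKM in MuSC (log2 difference 4.88 ± 0.38, limma adjusted p = 5.12e-07). Proliferating SMMC had 129, 91.5 and 73.2 FPKM, below every fresh library (log2 difference -3.30 ± 0.34, limma adjusted p = 3.18e-06). Differentiating SMMC had 66.5, 144 and 53.4 FPKM, which overlapped the proliferating libraries (log2 difference -0.25 ± 0.34, limma adjusted p = 0.615). Junb is the single member that passed the test as higher in cultured SMMC than in MuSC. The log2 difference was 1.58 ± 0.38 in proliferating SMMC (limma adjusted p = 0.00259) and 1.33 ± 0.38 in differentiating SMMC (limma adjusted p = 0.00735). Over all genes tested 42.7% and 45.6% were higher, with median log2 differences of 0.356 and 0.493. Comparisons of cultured SMMC with MuSC were not rerun with other scaling or with a library left out.

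Jund, the Jun gene usually described as constitutive, was at or below 2.88 FPKM in 10 of the 11 libraries. Its values were 0.34, 0.18 and 28.2 FPKM in fresh SMMC, 1.13, 0.43 and 1.52 FPKM in the proliferating libraries, 1.17, 1.36 and 0.97 FPKM in the differentiating libraries, and 0.37 and 2.88 FPKM in MuSC. Fresh SMMC replicate 3 alone was high, and no pair of groups passed the test. The difference between fresh SMMC and MuSC was 0.64 ± 1.04 on the log2 scale (limma adjusted p = 0.624). Without fresh SMMC replicate 3 its sign turned, to -0.87 (adjusted p = 0.0992), and the difference between proliferating and fresh SMMC turned to 0.65 (adjusted p = 0.156), against -0.86 ± 0.93 with it (limma adjusted p = 0.425).

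Atf3, the stress-induced partner of Jun proteins, had 351, 489 and 578 FPKM in fresh SMMC against 92.1 and 91.6 FPKM in MuSC (log2 difference 2.32 ± 0.47, limma adjusted p = 0.000975). Proliferating SMMC had 3.45, 2.71 and 2.60 FPKM (log2 difference to fresh SMMC -6.89 ± 0.42, limma adjusted p = 4.45e-08). Differentiating SMMC had 5.29, 27.0 and 8.32 FPKM, all above the proliferating libraries (log2 difference 1.59 ± 0.42, limma adjusted p = 0.00905). Replicate 2 held the highest value among the differentiating libraries for Atf3, as it did for all 10 members.

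Egr1, a zinc finger factor induced through serum response elements, had 1320, 1846 and 1893 FPKM in fresh SMMC against 310 and 341 FPKM in MuSC (log2 difference 2.35 ± 0.35, limma adjusted p = 0.000105). Proliferating SMMC had 24.5, 20.2 and 39.3 FPKM, below every fresh library (log2 difference -5.90 ± 0.32, limma adjusted p = 1.81e-08). Differentiating SMMC had 86.4, 182 and 80.3 FPKM, above every proliferating library (log2 difference 1.96 ± 0.32, limma adjusted p = 0.000377). As for Fos, Fosl2 and Atf3, the 4 groups stood in the order fresh SMMC, MuSC, differentiating SMMC and proliferating SMMC, and each neighbouring pair passed the test.

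Egr3, a low-abundance relative known from muscle spindles, separated differentiating from proliferating cells. It had 5.52, 5.99 and 4.75 FPKM in differentiating SMMC against 0.03, 0.31 and 0.13 FPKM in proliferating SMMC (log2 difference 2.48 ± 0.30, limma adjusted p = 4.26e-05). Fresh SMMC had 4.0, 8.42 and 11.8 FPKM and MuSC 7.57 and 8.52 FPKM, and these groups overlapped (log2 difference -0.10 ± 0.33, limma adjusted p = 0.825). Differentiating SMMC did not pass the test against fresh SMMC either (log2 difference -0.40 ± 0.30, limma adjusted p = 0.25). All 3 differentiating libraries lay below both MuSC libraries, without passing the test (limma adjusted p = 0.199).

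**Figure D2:**
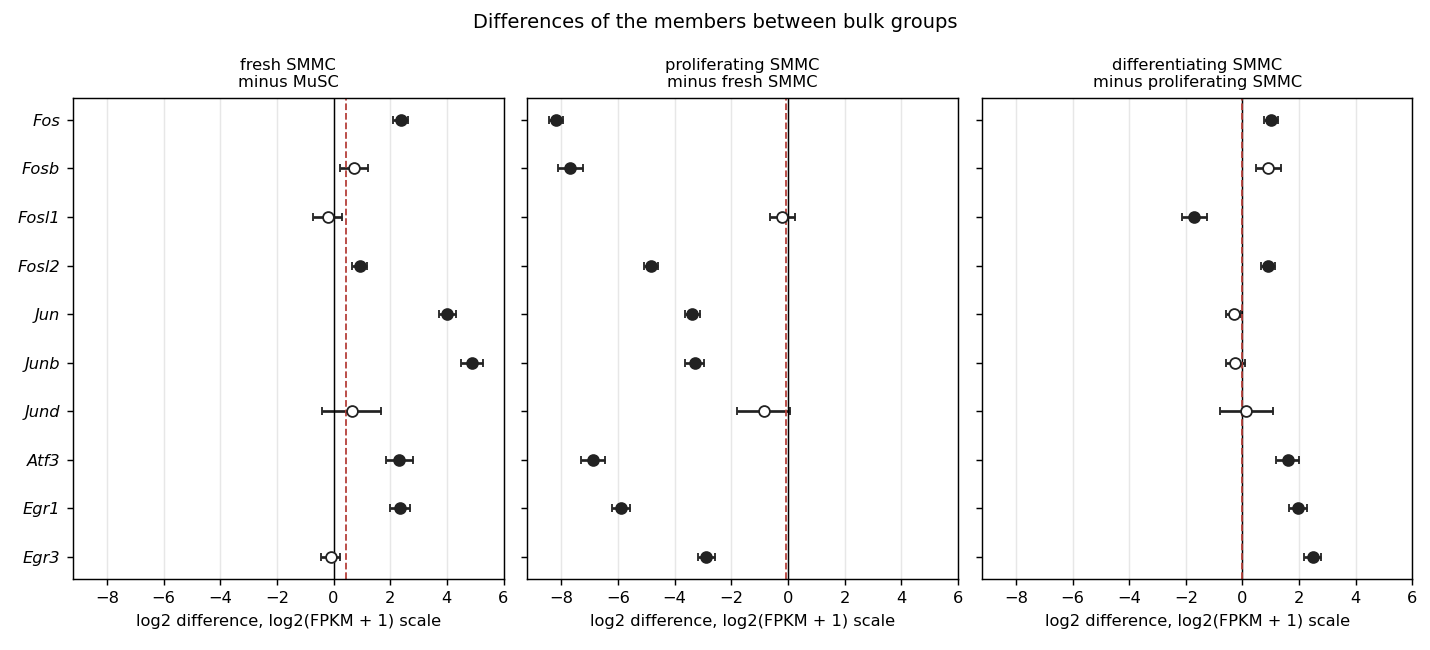
Points are the log2 differences of the 10 members in 3 bulk comparisons, with bars of 1 SE from limma over all 11 libraries; filled points passed an adjusted p of 0.05, open points did not, and the dashed line is the median of all genes tested. Junb and Jun lie farthest right in fresh SMMC minus MuSC (4.88 and 4.02), and Fos and Fosb farthest left in proliferating minus fresh SMMC (-8.17 and -7.69).

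Counted over the group, 6 of the 10 members were higher in fresh SMMC than in MuSC, the 6 being Fos, Fosl2, Jun, Junb, Atf3 and Egr1. No member was lower by limma, and 0 were lower at an unadjusted p of 0.05. Over all 13233 genes tested, 41.7% were higher and 18% lower in the same fit, so a count of 6 of 10 lies little above the background. The members' median log2 difference was 1.62, against 0.453 over all genes. The share of higher among all called genes was 69.8% as deposited, 51.2% with TMM rescaling and 48.1% with quantile normalization, and the median of all genes moved to 0.0416 and -0.0439. Fos, Jun, Junb, Atf3 and Egr1 stayed past the threshold in every alternative run, with log2 differences of 1.75 to 2.84 for Fos, 3.41 to 4.54 for Jun and 4.28 to 5.09 for Junb.

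Markers of other cells moved with this comparison. The summed tenocyte markers were 9083 to 18550 FPKM in fresh SMMC against 13.0 to 22.67 FPKM in MuSC, and the summed pericyte markers 1479 to 3817 FPKM in fresh SMMC against 102.2 to 108 FPKM in MuSC. Fibro-adipogenic progenitor markers summed to 2758 to 4882 FPKM in fresh SMMC and 704.9 to 828.3 FPKM in MuSC, glial markers to 272.1 to 463.9 FPKM in fresh SMMC and 5.909 to 7.268 FPKM in MuSC, and endothelial markers to 118.2 to 213.3 FPKM in fresh SMMC and 25.34 to 38.48 FPKM in MuSC. Smooth muscle markers summed to 1236 to 1883 FPKM in fresh SMMC and 166.6 to 223.4 FPKM in MuSC, and erythroid markers to 331.8 to 885 FPKM in fresh SMMC and 6.845 to 13.17 FPKM in MuSC. Macrophage markers ran the other way, at 6.872 to 12.25 FPKM in fresh SMMC and 23.9 to 33.16 FPKM in MuSC. The part of these cells in the members' differences was not tested.

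In proliferating against fresh SMMC, 8 of the 10 members were lower, all but Fosl1 and Jund, and 0 were higher, also at an unadjusted p of 0.05. Over all genes tested 35.4% were lower, and the median log2 difference was -4.10 over the members against -0.06 over all genes. The 8 calls held in each of the alternatives run, except that a filter at 10 FPKM left Egr3 untested and called the other 7. Fos, Fosb and Atf3 differed by -6.89 to -8.17 on the log2 scale and Jun and Junb by -3.37 and -3.30, a contrast between genes that was not itself tested. Markers of mitosis moved the other way, with all 5 at 1 FPKM or more and a sum of 451.5 to 481.4 FPKM in proliferating SMMC, against none at 1 FPKM and 1.375 to 2.819 FPKM in fresh SMMC. Tenocyte markers had 7.519 to 22.43 FPKM in proliferating SMMC against 9083 to 18550 FPKM in fresh SMMC. Fewer such cells and less of this RNA per cell cannot be told apart here. The part of either in the members' change was not tested.

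In differentiating against proliferating SMMC, 5 of the 10 members were higher, namely Fos, Fosl2, Atf3, Egr1 and Egr3, and Fosl1 was lower. The background was 20.9% higher and 19.6% lower. Other markers moved too: myofibre markers summed to 12940 to 16280 FPKM in differentiating against 557 to 1477 FPKM in proliferating SMMC, and mitotic markers to 41.63 to 86.38 FPKM in differentiating against 451.5 to 481.4 FPKM in proliferating SMMC. Fibro-adipogenic progenitor markers had 58.88 to 201.9 FPKM in differentiating against 18.99 to 35.42 FPKM in proliferating SMMC, and pericyte markers 28.43 to 47.64 FPKM in differentiating against 10.64 to 16.96 FPKM in proliferating SMMC. Their part in the members' differences was not tested. This comparison and the previous ones share the proliferating or the fresh SMMC libraries, so their values are given side by side and not as separate support. In differentiating against fresh SMMC, 8 members were lower, all but Egr3 and Jund, where 33.3% of all genes were. Of the 5, Egr3 alone did not pass that test. It had 4.75 to 5.99 FPKM in differentiating and 4.0 to 11.8 FPKM in fresh SMMC, which does not show equal levels. Against MuSC, which share no library with the cultured groups, 6 members were lower and Junb was higher in proliferating SMMC (25.7% of all genes lower, 42.7% higher). In differentiating SMMC again 6 were lower and Junb was higher (25.5% lower, 45.6% higher), with Fosl1 in place of Egr3 among the 6.

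The make-up of the Fos family differed between the groups. Summed over Fos, Fosb, Fosl1 and Fosl2, the family had 1749 ± 324 FPKM in fresh SMMC, 20.3 ± 2.17 FPKM in proliferating cells, 20.5 ± 7.95 FPKM in differentiating cells (SD, n = 3 each) and 504 ± 178 FPKM in MuSC (SD, n = 2). Fos held 79 ± 0.751% of that sum in fresh SMMC, 18.6 ± 2.73% in proliferating cells, 44.7 ± 13.5% in differentiating cells and 54.3 ± 5.94% in MuSC. Fosl1 held 0.986 ± 0.397% in fresh SMMC and 68.3 ± 1.5% in proliferating SMMC, where it was the main Fos family transcript in each library. The level of Fosl1 itself did not pass the test between those groups (log2 difference -0.20 ± 0.45), while Fos and Fosb fell. Fosb held 30.9 ± 0.141% in MuSC, more than the 13.1% to 15.6% of the fresh SMMC libraries. The Jun family summed to 2721 ± 486 FPKM in fresh SMMC, 266 ± 28.8 FPKM in proliferating cells, 227 ± 85.8 FPKM in differentiating cells and 146 ± 58.6 FPKM in MuSC. Jun made up 64.3 ± 3.81% of it in fresh SMMC, 63.1 ± 7.29% in proliferating cells, 61.9 ± 8.24% in differentiating cells and 75.8 ± 7.99% in MuSC, and the libraries of the SMMC groups overlapped.

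**Figure D3:**
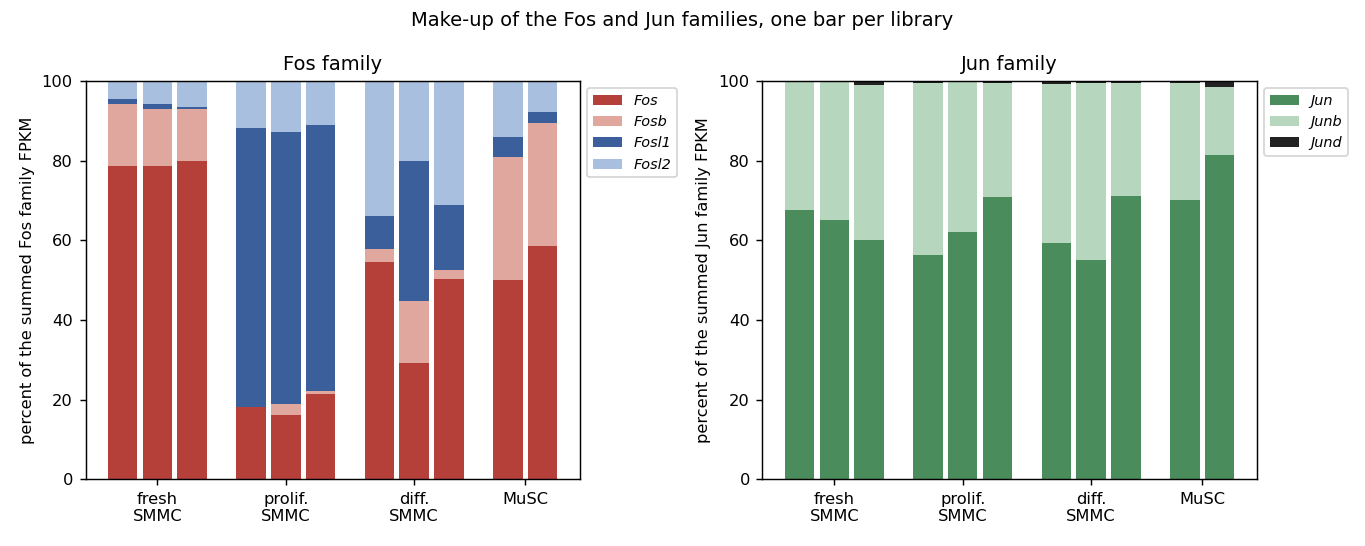
Each bar is 1 bulk library and shows, in percent, how the summed FPKM of the Fos family (left) and of the Jun family (right) divides over its genes. Fosl1 takes 66.8% to 69.8% of the Fos family in the proliferating SMMC libraries and 0.557% to 1.34% in the fresh SMMC libraries, while Jun and Junb share the Jun family in every library.

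The genes around AP-1 and Egr were counted in the same fits. Among 24 other immediate early genes, all tested, 17 were higher and 1, Klf4, was lower in fresh SMMC than in MuSC (41.7% and 18% of all genes). Ier2 and Gadd45b led, with log2 differences of 4.04 ± 0.28 and 4.28 ± 0.31 (limma adjusted p = 2.00e-07 and 2.60e-07). In proliferating against fresh SMMC 23 of the 24 were lower and Klf10 was higher (35.4% lower and 33.1% higher over all genes), led by Nfkbiz at -5.43 ± 0.25 and Socs3 at -5.81 ± 0.28. Between differentiating and proliferating SMMC 6 of the list were higher in the differentiating libraries, led by Btg2 at 2.22 ± 0.36 and Per1 at 0.86 ± 0.23, and 5 were lower. These shares, 25% and 20.8%, lie close to the 20.9% and 19.6% of all genes. The list's median log2 differences in these 3 comparisons were 2.02, -3.60 and 0.17.

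The feedback list holds phosphatases that switch off MAP kinases and proteins that speed the decay of short-lived mRNAs. Of its 13 genes, 8 were higher and 4 lower in fresh SMMC than in MuSC (41.7% and 18% of all genes), led by Zfp36l1 (log2 difference 3.07 ± 0.22) and Dusp1 (3.43 ± 0.36), a MAP kinase phosphatase. In proliferating against fresh SMMC 10 were lower and Dusp2 was higher (35.4% and 33.1% of all genes), led by Zfp36l1 at -5.74 ± 0.20 and Zfp36 at -6.88 ± 0.31. Differentiation in turn had 7 of the list higher than proliferating SMMC, led by Zfp36l1 at 1.71 ± 0.20 and Dusp10 at 1.34 ± 0.25, and 3 lower (20.9% and 19.6% of all genes). The upstream list holds kinases and serum response factor partners that switch these genes on. Of 16 tested, 4 were higher and 4 lower in proliferating against fresh SMMC (33.1% and 35.4% of all genes), and the median log2 difference was 0.10. Its lead genes there were the kinases Map2k2 (1.19 ± 0.15) and Map2k4 (0.71 ± 0.17). In fresh SMMC against MuSC 9 of the 16 were higher (41.7% of all genes), led by Map2k1 (1.74 ± 0.23) and Map2k4 (1.38 ± 0.19), while Srf and Elk4 were lower (18%). Differentiating SMMC had 1 of the 16 higher than proliferating SMMC and 2, Elk3 and Mapk3, lower (-0.96 ± 0.22 and -0.97 ± 0.29), where 20.9% and 19.6% of all genes were.

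Egr2 and the Egr co-repressors Nab1 and Nab2 gave 3 tested genes of a list of 4. In fresh SMMC against MuSC Nab2 (1.85 ± 0.31) and Nab1 (1.80 ± 0.36) were higher and Egr2 was lower (41.7% and 18% of all genes), so Egr2 was opposite in sign to Egr1. All 3 were lower in proliferating than in fresh SMMC (35.4% of all genes), with Egr2 at -4.79 ± 0.26 and Nab1 at -3.37 ± 0.32 on the log2 scale. Egr2 (2.41 ± 0.26) and Nab2 (1.87 ± 0.28) were higher in differentiating than in proliferating SMMC (20.9% of all genes). Counts of 3 genes are too few to set against these shares. Among 18 tested bZIP genes that are not members, such as Creb, Maf and C/EBP genes, 8 were higher and 3 lower in fresh SMMC than in MuSC, shares close to the 41.7% and 18% of all genes, led by Cebpd (6.28 ± 0.22) and Batf (1.88 ± 0.19). In proliferating against fresh SMMC 17 of the 18 were lower (35.4% of all genes), led by Cebpd (-6.17 ± 0.20) and Crem (-3.73 ± 0.17). In differentiating against proliferating SMMC 7 were higher, Maf (1.52 ± 0.22) among them, and Creb1 was lower (20.9% and 19.6% of all genes).

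Genes often described as AP-1 targets split. Of 19 tested, 9 were higher, led by Il6 (5.58 ± 0.22) and Mmp3 (4.34 ± 0.21), and 5 lower in fresh SMMC than in MuSC, against 41.7% and 18% of all genes. In proliferating against fresh SMMC 12 were lower, led by Il6 (-8.38 ± 0.20) and Cxcl2 (-5.99 ± 0.18), and 4 higher (35.4% and 33.1% of all genes). In differentiating against proliferating SMMC 4 were lower, led by Ccnd1 (-1.64 ± 0.28) and Areg (-0.98 ± 0.23), and Hbegf was higher (19.6% and 20.9% of all genes). Of 12 heat shock genes 5 were higher in fresh SMMC than in MuSC, the same 41.7% as over all genes, among them Hspb1 (5.53 ± 0.39) and Hspa1a (5.25 ± 0.48). In that comparison 2 were lower, or 16.7%, against 18% of all genes. In proliferating SMMC 7 were lower than in fresh SMMC (35.4% of all genes), led by Hspa1a (-9.62 ± 0.43) and Hspa1b (-9.01 ± 0.42), and 2 were higher (33.1%). In differentiating against proliferating SMMC 6 of the 12 were lower, led by Hspd1 (-1.72 ± 0.18) and Hspe1 (-1.30 ± 0.19), where 19.6% of all genes were.

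The genes whose profile over the 11 libraries was most like that of Fos, by the mean absolute difference of centred log2(FPKM + 1) among 7594 genes, were Chodl (0.377), Tnfaip6 (0.43), Col6a1 (0.506), Icam1 (0.541) and Abi3bp (0.581). Chodl, a muscle stem cell marker, had 331 ± 74.5 FPKM in fresh SMMC, 0.14 ± 0.104 FPKM in proliferating cells, 2.21 ± 0.305 FPKM in differentiating cells (SD, n = 3 each) and 133 ± 9.54 FPKM in MuSC (SD, n = 2). Those most like Egr1 were Timp3 (0.356), Gsn (0.379), Ptpn13 (0.40), Fam129a (0.426) and Plat (0.437). Timp3, an inhibitor of matrix proteases, had 879 ± 113 FPKM in fresh SMMC, 9.47 ± 2.34 FPKM in proliferating cells, 66.4 ± 38.5 FPKM in differentiating cells and 111 ± 6.38 FPKM in MuSC.

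Levels by cell type came from the single-cell libraries of uninjured muscle. Library 1 held 6144 cells with a median of 2516 UMIs (unique transcript molecules counted) and library 2 held 6297 cells with a median of 2027. They share 53 cell barcodes, 0.863% and 0.842% of their cells. The cells were clustered without the members and the lists above, and clusters were named from markers with the ending -like. This gave 13 named classes, of which 9 had at least 50 cells in each library. Their summed counts were compared with the muscle stem cell-like class by edgeR with library as a term, over 11904 genes. Egr3 could not be tested and had 18 UMIs in all of library 2.

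The sort gate of the bulk samples can be placed on these classes. Levels there are CPM, UMIs per 1000000 UMIs of the class and library. Itga7 had 292 and 190 CPM in the pericyte-like class (libraries 1 and 2) and 227 and 93.3 in the smooth muscle-like class, against 59.8 and 50.2 in the muscle stem cell-like class. Vcam1 ran the other way, with 7.17 and 28.7 CPM in the pericyte-like and 63.9 and 63.3 in the smooth muscle-like class, against 707 and 502 in the muscle stem cell-like class. The pericyte-like class was thus the one tested class with more Itga7 and less Vcam1 than the muscle stem cell-like class in both libraries. Pecam1 (CD31), however, had 191 and 224 CPM in pericyte-like against 10.9 and 41.4 in muscle stem cell-like cells. Ly6a (Sca1) had 421 and 428 against 20.4 and 50.8, and Ptprc (CD45) 12 and 14.4 against 10.2 and 11.9. The gate was set on proteins and these are RNA levels, so which class matches fresh SMMC was not tested.

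Fos, Jun and Fosl2 were higher in the pericyte-like than in the muscle stem cell-like class. Fos had 4410 CPM in library 1 (exact 95% Poisson interval 4210 to 4610) and 2670 in library 2 (2500 to 2840) in pericyte-like cells. In muscle stem cell-like cells it had 2170 (2090 to 2250) and 597 (560 to 636), and these intervals cover counting error only. The log2 difference was 1.21 ± 0.34 (SE, edgeR adjusted p = 0.0108). Jun had 4220 and 2770 CPM in pericyte-like cells against 1900 and 428 in muscle stem cell-like cells (log2 difference 1.59 ± 0.39, edgeR adjusted p = 0.00385). Fosl2 had 287 and 480 against 175 and 96.0 (log2 difference 1.13 ± 0.42, edgeR adjusted p = 0.0499), just inside the threshold. That call ended with DESeq2 (adjusted p = 0.0646) and without the top 5% of doublet scores (0.171), and with the cluster led by Sfrp5 counted as fibro-adipogenic progenitor-like (0.0514). Junb, with 3610 and 4780 against 2660 and 1060 CPM, lay just outside it (log2 difference 0.93 ± 0.36, edgeR adjusted p = 0.0543). These 3 were 3 of 9 members tested, where 14.2% of all genes were higher in that comparison, and Fosl1 was lower, as were 13.7%. Without library in the model only the Fosl1 call was left, and the log2 differences of Fos, Jun and Fosl2 were 0.98, 1.22 and 1.22 (adjusted p = 0.264, 0.265 and 0.0836). Egr1 did not pass the test between these classes, with 968 and 989 against 1280 and 493 CPM (edgeR adjusted p = 1).

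Endothelial-like cells also had 3 members higher, where 19.7% of all genes were, and Fosl1 lower (19.4%), and without library in the model the Atf3 call alone was left of these 4. Jun had 4140 and 1970 CPM in them against 1900 and 428 in muscle stem cell-like cells (log2 difference 1.41 ± 0.39, edgeR adjusted p = 0.00567). Atf3 had 1710 and 1110 against 750 and 174 (log2 difference 1.44 ± 0.42, edgeR adjusted p = 0.00821), and Fosl2 305 and 419 against 175 and 96.0 (log2 difference 1.19 ± 0.41, edgeR adjusted p = 0.0245). Fos, at 3280 and 1600 CPM, did not pass the test there (log2 difference 0.75 ± 0.34, edgeR adjusted p = 0.0861).

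**Figure D4:**
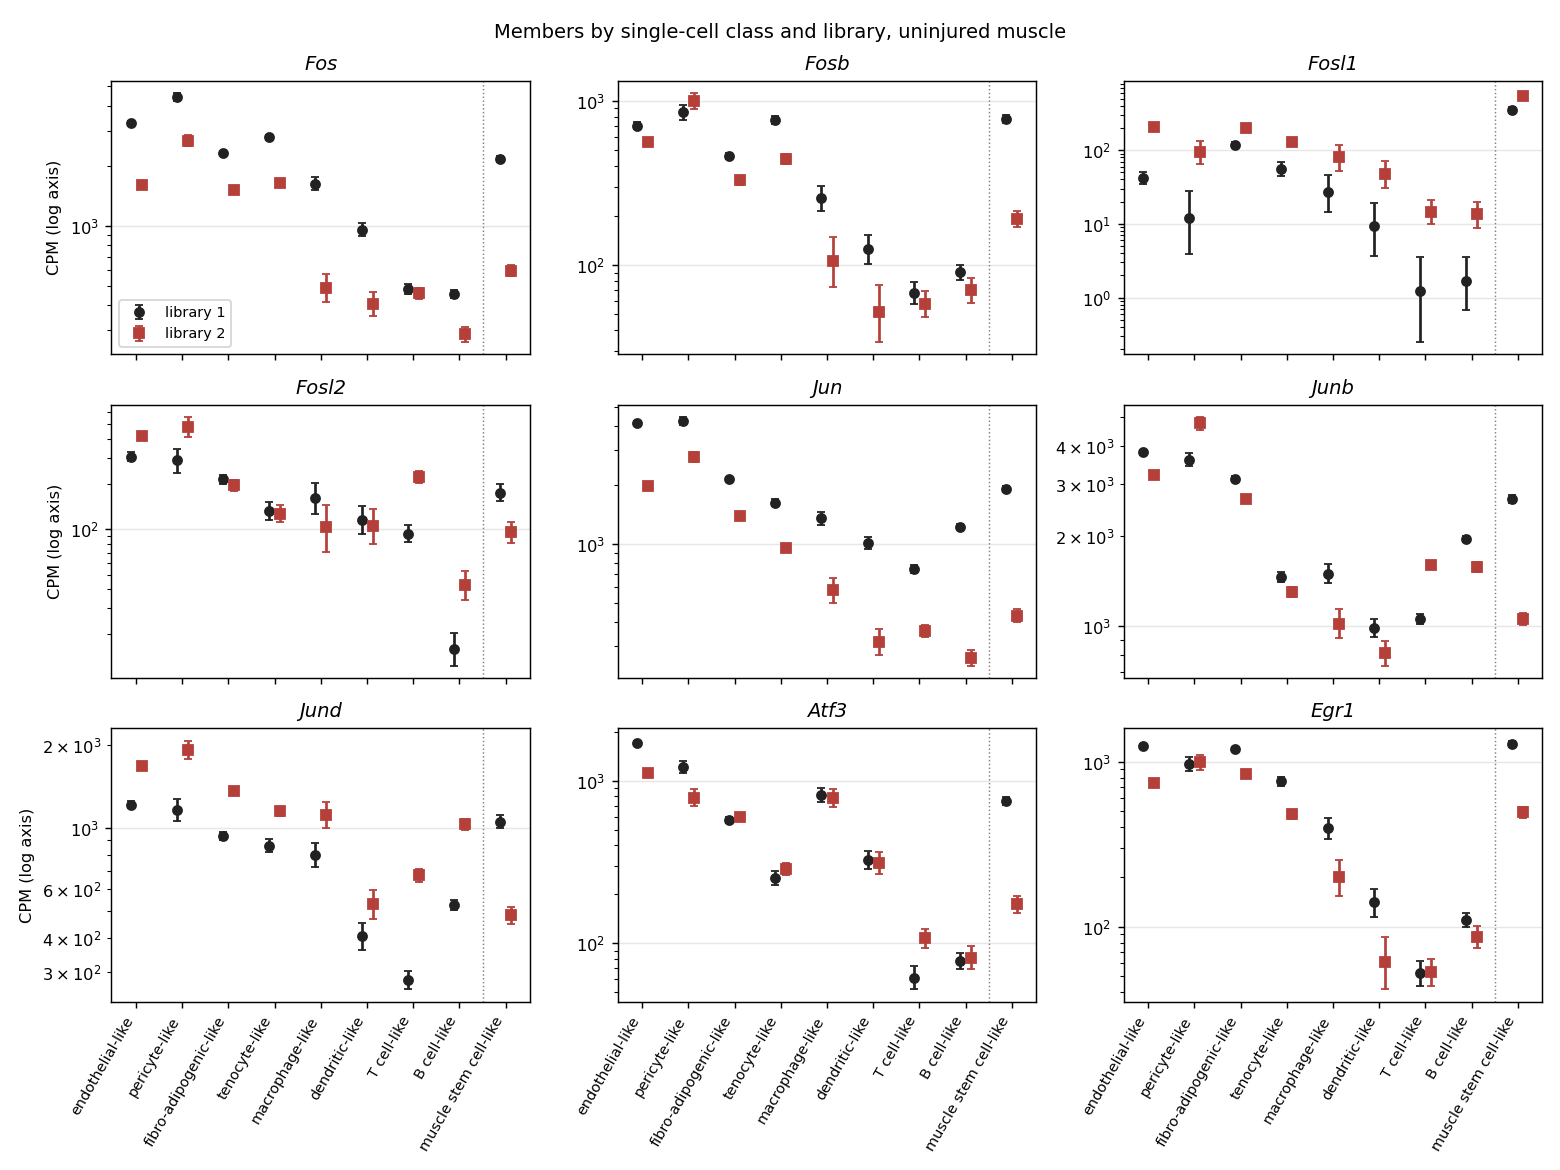
CPM (log axis, a different range in each panel) of 9 members in the 9 tested classes, with the muscle stem cell-like class right of the dotted line; circles are library 1, squares are library 2, and bars are exact 95% Poisson intervals of the counts. Fosl1 is highest in the muscle stem cell-like class in both libraries (352 and 551), and within library 1 Fos, Atf3 and Egr1 are lowest in the T cell-like and B cell-like classes.

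Members were often lower in lymphoid and dendritic cells. In B cell-like cells 6 of 9 members were lower than in muscle stem cell-like cells, where 25.0% of all genes were, and in T cell-like cells 5 of 9 (23.4%). Egr1 had 110 and 86.8 CPM in B cell-like and 52.5 and 52.9 in T cell-like cells, against 1280 and 493 in muscle stem cell-like cells (log2 differences -3.13 ± 0.35 and -3.78 ± 0.36, edgeR adjusted p = 2.06e-07 and 3.74e-08). Fos had 454 and 286 in B cell-like and 484 and 461 in T cell-like cells, below both muscle stem cell-like libraries (log2 differences -1.79 ± 0.35 and -1.12 ± 0.34, edgeR adjusted p = 0.000219 and 0.0113). The call in T cell-like cells ended without library in the model (-1.39, adjusted p = 0.0758). Junb was not among the lower members: B cell-like cells had 1960 and 1580 CPM and T cell-like cells 1060 and 1600, against 2660 and 1060 (edgeR adjusted p = 0.853 and 0.573). Dendritic-like cells had 5 of 9 lower (18.4% of all genes), or 3 with DESeq2, and macrophage-like cells 3, Fosb, Fosl1 and Egr1 (15.5%), with the Fosb call lost without library in the model (adjusted p = 0.0656).

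Fibro-adipogenic progenitor-like and tenocyte-like cells each differed from muscle stem cell-like cells in 1 member, Fosl1 (13.7% and 11% of all genes lower). Fos had 2310 and 1510 CPM in fibro-adipogenic progenitor-like and 2790 and 1640 in tenocyte-like cells, against 2170 and 597 in muscle stem cell-like cells. Within libraries 1 and 2 this was 1.06-fold and 2.53-fold for fibro-adipogenic progenitor-like cells and 1.29-fold and 2.75-fold for tenocyte-like cells. Neither class passed the test for Fos. The log2 differences were 0.57 ± 0.34 for fibro-adipogenic progenitor-like cells (edgeR adjusted p = 0.222) and 0.77 ± 0.34 for tenocyte-like cells (edgeR adjusted p = 0.105).

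Fosl1 was highest in muscle stem cell-like cells, at 352 and 551 CPM, and was lower in all 8 other tested classes. Without library in the model 5 of these 8 calls held, and those for endothelial-like (adjusted p = 0.125), fibro-adipogenic progenitor-like (0.259) and tenocyte-like cells (0.111) ended. The difference was between 3.07-fold, against fibro-adipogenic progenitor-like cells (118 and 201 CPM, log2 difference -1.62 ± 0.42, edgeR adjusted p = 0.00544), and 87.4-fold, against B cell-like cells (1.70 and 13.5, log2 difference -6.45 ± 0.56, edgeR adjusted p = 6.42e-09). In pericyte-like cells Fosl1 had 12 and 94.8 CPM, from 5 and 33 UMIs (log2 difference -3.74 ± 0.52, edgeR adjusted p = 1.11e-05). The bulk comparison of fresh SMMC with MuSC had found no such difference, with 16.5 ± 4.90 FPKM in fresh SMMC (SD, n = 3) and 18.6 ± 0.978 FPKM in MuSC (SD, n = 2).

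Jund also read differently in the droplet data, where it had between 210 and 1920 CPM in every named class and library. Pericyte-like cells had 1160 and 1920 and muscle stem cell-like cells 1050 and 481 CPM (log2 difference 0.53 ± 0.38, edgeR adjusted p = 0.339). In bulk it was below 3 FPKM in 10 of 11 libraries. The 2 scales cannot be set against each other, and the cause of the low bulk values was not tested.

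The libraries differed in level, in opposite directions for different members. Jun was higher in library 1 than in library 2 in 13 of 13 named classes, Fos and Fosb in 11 of 13, and Junb and Egr1 in 9 of 13. Fosl1 was higher in library 2 in 13 of 13 classes and Jund in 11 of 13. Muscle stem cell-like cells had the lowest ratio of library 2 to library 1 of any named class for 7 of the 9 members, all but Jun and Egr1. There the ratio was 0.275 for Fos, 0.246 for Fosb, 0.232 for Atf3 and 0.225 for Jun, but 1.57 for Fosl1, whose lowest ratio still had library 2 higher. In pericyte-like cells it was 0.605 for Fos and 0.656 for Jun, and in glial-like cells 0.928 and 0.82. As a result the excess of Fos in pericyte-like over muscle stem cell-like cells was 2.03-fold in library 1 and 4.47-fold in library 2, and that of Jun 2.22-fold and 6.47-fold. With 1 library on each side these ratios carry no test, and depth also differed between the libraries. So did the highest mitochondrial share of any cell, at 14.99% in library 1 and 9.96% in library 2. The part of either in these ratios was not tested.

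Within the endothelial-like class 1 cluster had the highest Fos, Jun and Atf3 in both libraries. This cluster, led by Sox17 and Id1, had 4188 and 3823 CPM of Fos, 5131 and 4635 of Jun and 2585 and 2734 of Atf3. The cluster led by Selp and Csf3, venous genes among them, had 1563 and 724 of Fos, 1324 and 937 of Jun and 765 and 548 of Atf3. The libraries fill the class from different clusters, since the one led by Timp4 and C1qtnf9 holds 577 cells of library 1 and 180 of library 2. The one led by Cldn5, Rsad2 and Ifit1, with interferon-response genes in the lead, holds 62 and 788. In that cluster Fos had 891 and 1171 CPM, against 3259 and 1866 in the Timp4 cluster, and Fosl1 135 and 358 against 2.72 and 12.6. Class values of endothelial-like cells therefore mix these clusters in different shares in the 2 libraries. B cell-like cells are also filled from different clusters.

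**Figure D5:**
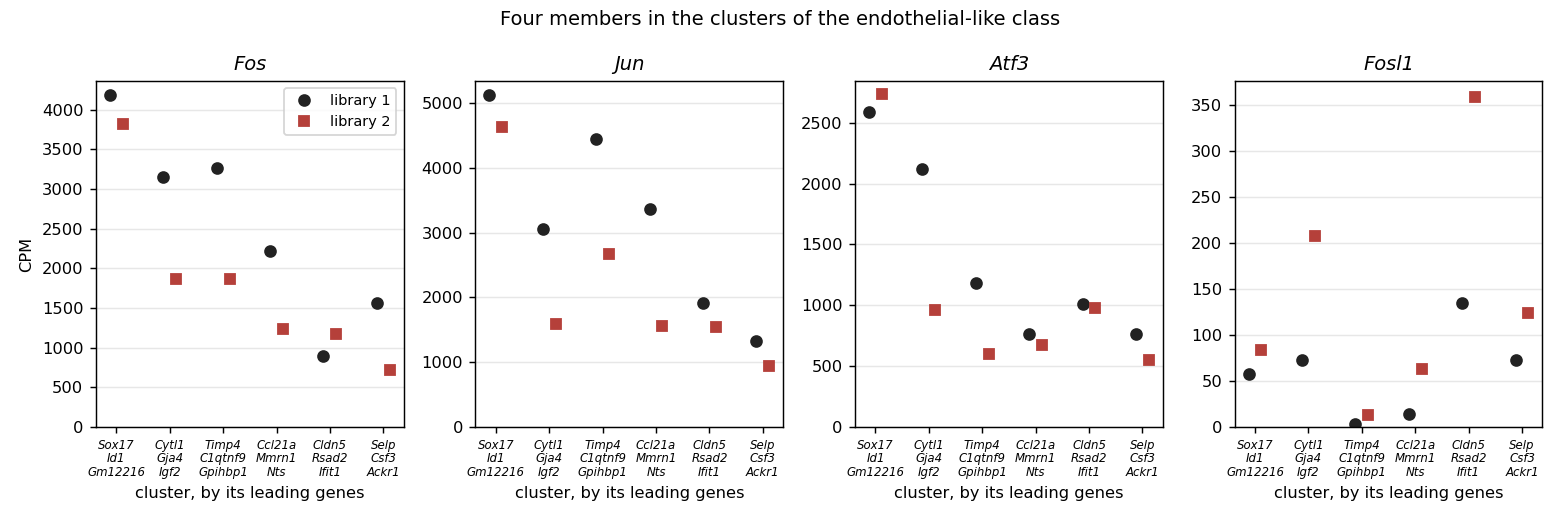
CPM of 4 members in the 6 clusters of the endothelial-like class, each named below the axis by its 3 leading genes; circles are library 1 and squares library 2. The Sox17 cluster is highest for Fos, Jun and Atf3 in both libraries (Atf3 2585 and 2734), and Fosl1 is highest in the cluster led by Cldn5 (135 and 358).

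Some classes were too small for the main comparison, and a fit with at least 20 cells a class and library was added after the data were seen. Glial-like cells, with 30 and 75 cells, had the highest Fos of any named class, at 5540 and 5140 CPM. Against muscle stem cell-like cells Fos (log2 difference 1.59 ± 0.43, edgeR adjusted p = 0.0097) and Jun (1.46 ± 0.42, edgeR adjusted p = 0.0141) were higher and Fosl1 was lower, 3 of 9 members, where 17.0% of all genes were called in either direction. Smooth muscle-like cells, with 42 and 122 cells, had 564 and 437 CPM of Fosl2 against 175 and 96.0 (log2 difference 1.62 ± 0.42, edgeR adjusted p = 0.00626). Their Fosl1 was lower, and 19.5% of all genes were called in either direction. Natural killer-like and neutrophil-like cells each had 6 of 9 members lower. Of all genes, 17.5% and 21.2% were called in either direction, and the share lower alone is not given here.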

How the data were processed

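Bulk expression was used as FPKM, the unit in which the authors deposited it, 1 value per gene symbol, from 11 libraries made with a Smart-seq2 protocol, per the labels' protocols. The table also held 4 value columns that matched no sample and were not used. The single-cell values were raw UMI counts per gene and cell as deposited by the authors, from 10X 3′ libraries. Per the submitters' processing notes, Seurat 2.2 and 2.3.4, Cell Ranger 2.1.0 and 2.2.0, STAR 2.5.1b, StringTie and HISAT2 2.1.0 were used with build mm10, without a statement of which made which table. How reads shared by genes were counted, by strand or not, is not given in the sources used here. Overlapping genes are therefore uncertain. FPKM keep no read count, so the bulk depth is unknown.

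The 13233 bulk genes that reached 1 FPKM in 2 or more libraries were tested with limma 3.58.1 in R 4.3.3 on log2(FPKM + 1), with an intensity trend, all 11 libraries in one fit, 7 residual degrees of freedom and two-sided p-values adjusted by Benjamini-Hochberg over genes (threshold 0.05). This scale understates changes of low genes. Cells were clustered with scanpy 1.11.5 (2000 variable genes, 30 components, 15 neighbours, resolution 1). Scrublet marked 52 and 4 cells as doublets, which were left out; it is taken not to have worked in library 2. A cluster was named when at least 3 markers and 50% of the list stood out in it and no other list had more of the 10 leading genes; a cluster led by Sfrp5 that met this for fibro-adipogenic progenitors was left unnamed, a choice made after its leading genes were seen. Counts were summed per class and library and tested with edgeR 4.0.16 (quasi-likelihood, library as a term) for classes of at least 50 cells in each library, over genes listed in both libraries. Both tests were tested on simulated data.

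The members and the lists were chosen with earlier results of these data known. The genes named from other lists are the ones lowest in adjusted p among those that changed as most of the list did, up to 2 a list and comparison; 1 gene that this would name is not reported here. Those most like Fos and Egr1 had at least 10 FPKM in the highest group. Genes named as exceptions in a list, and the clusters named, were chosen after their values were seen. Replicate numbers are shared between the bulk groups, but libraries with the same number did not deviate together (correlations -0.128 to 0.142), so the numbers were not treated as pairs. Alternatives changed the pseudocount, filter, scaling, fit, doublets, clustering and test, and left out each library. In bulk they covered only fresh SMMC minus MuSC, proliferating minus fresh SMMC and differentiating minus proliferating SMMC.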

Additional observations from a re-analysis of the deposited data

How the results depend on the processing

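In bulk, the members called numbered 5 to 6 in fresh SMMC minus MuSC, 8 in proliferating minus fresh SMMC and 6 to 7 in differentiating minus proliferating SMMC when each library was left out, against 6, 8 and 6 as reported. With the replicate number as a block they numbered 6, 8 and 7, since Fosb passed between differentiating and proliferating SMMC (adjusted p = 0.0455). A filter at 10 FPKM, which tests fewer genes, called 5233 genes (7906 as reported) in fresh SMMC minus MuSC and 6030 (9061) in proliferating minus fresh SMMC. Jund turned to -0.089 with quantile normalization in differentiating minus proliferating SMMC (log2 difference, 0.13 as reported). Values that did not pass the test changed sign when 1 library was left out. In fresh SMMC minus MuSC, Fosl1 ran from -0.36 to 0.051, Jund from -0.87 to 1.44 and Egr3 from -0.40 to 0.28. Jund ran from -1.67 to 0.65 in proliferating minus fresh SMMC, and in differentiating minus proliferating SMMC Junb ran from -0.67 to 0.040 and Jund from -0.10 to 0.31. Of the single-cell calls, 29 of 72 member comparisons passed with library as a term and 17 with no replicate block, that is without library in the model. Without it, 1 member was called in endothelial-like cells (4 as reported), 1 in pericyte-like cells (4), 0 in fibro-adipogenic progenitor-like and 0 in tenocyte-like cells (1 each), 3 in dendritic-like cells (5), 4 in T cell-like cells (5) and 2 in macrophage-like cells (3). Dendritic-like cells also had 3 with DESeq2 and 3 in the fit with classes of at least 20 cells. Uncalled log2 differences to muscle stem cell-like cells that changed sign were Junb in B cell-like cells at 0.058 without the top 5% of doublet scores (-0.10 as reported), Egr1 in endothelial-like cells at -0.052 without library in the model (0.04), and Egr1 in pericyte-like cells at 0.094 with DESeq2 (-0.01). In macrophage-like cells Fosl2 was 0.018 with DESeq2 (-0.08), and Jund was -0.33 with clustering at resolution 0.5 and -0.044 without the top 5% of doublet scores (0.11). The causes of these changes were not tested. Precision is limited by 2 or 3 libraries a bulk group with unknown depth, by 2 single-cell libraries in all, and by the 18 UMIs of Egr3 in library 2.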

Other observations

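Among B cell-like cells, Jun had unlike levels in 2 clusters. The cluster led by Vpreb3, Tnfrsf13c and Cr2 (558 and 75 cells in libraries 1 and 2) had 3021 and 958.9 CPM of Jun, against 377.2 and 250.1 CPM in the cluster led by Fcmr and Ighd (1047 and 353 cells). The same clusters had 612.3 and 441.5 CPM of Fos against 378 and 251.7, and 2223 and 1745 CPM of Junb against 1809 and 1252. These are values of 2 libraries with no test.

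A cluster of 47 and 88 cells led by Sfrp5, Il33 and Apod was left unnamed. It had 7 fibro-adipogenic progenitor markers raised, with none among its 10 leading genes, and leaving it out of that class was a choice made after its leading genes were seen; the class itself had 820 and 658 cells. Counting it there changed 1 of the 29 calls, that of Fosl2 in pericyte-like cells (adjusted p = 0.0514). It had 3973 and 1569 CPM of Fos, 2469 and 1101 CPM of Jun, 4917 and 2717 CPM of Junb and 1342 and 873.3 CPM of Egr1. Fosl1 was at 107.9 and 139.2 CPM there, from 16 and 33 UMIs.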
